A study of Homo sapiens with 18 samples.

Results

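Expression of 8 genes of the vitamin D and aryl hydrocarbon receptor (AhR) pathways was followed in human cancer cells treated with siRNAs against BLM, a RecQ helicase that unwinds recombination intermediates. The genes were CYP24A1, CYP27B1 and VDR for vitamin D and CYP1A1, CYP1B1, AHR, AHRR and TIPARP for AhR, matched by symbol, 8 of the 27968 genes in the files. They were chosen by their measured differences between siRNA and control, with results of these libraries known, among them the lower CYP24A1 of MDA-MB-231 cells after BLM siRNA. Their differences between siRNA and control are therefore given as descriptions, with no test.

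The series set out to profile genes regulated by BLM in cancer cells, by RNA sequencing of 18 libraries in 6 groups of 3. A549, a lung cancer line, received a control siRNA, BLM siRNA1, BLM siRNA2 or BLM siRNA3, and MDA-MB-231, a breast cancer line, received a control siRNA or BLM siRNA1. All cells grew in DMEM with 10% fetal bovine serum, and total RNA was collected at about 80% confluence in flat culture or on day 4 of 3D culture. The labels do not say which culture a library came from, whether the libraries of a group are separate cultures, or whether siRNA1 is 1 sequence in both lines beyond its shared name. The p-values thus cover only how far such libraries lie apart, possibly for technical reasons alone. Each line is 1 established cancer line, and no vitamin D metabolite or AhR ligand is named among the treatments.

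In vitamin D signalling, CYP27B1 makes the active hormone calcitriol, calcitriol binds the nuclear receptor VDR, and VDR with its partner RXR switches on target genes. CYP24A1, a strongly induced VDR target, breaks calcitriol down again. AHR is a ligand-activated transcription factor that leaves an HSP90 complex, pairs with ARNT and switches on CYP1A1 and CYP1B1, which oxidise aromatic hydrocarbons and, for CYP1B1, estrogens. Both AHRR, a repressor that competes for ARNT, and TIPARP, an ADP-ribosyltransferase that modifies AHR, are targets that feed back on the receptor. In lung epithelium the AhR genes are known for their response to tobacco smoke.

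BLM was low in each siRNA group. Its mean CPM (counts scaled to library size, with library sizes scaled by the TMM method within a line) was 1.51%, 13.6% and 8.30% of the A549 control with siRNA1, siRNA2 and siRNA3, and 14.7% of the MDA-MB-231 control with siRNA1. Library totals ran from 30143047 to 40328208 expected counts. The third siRNA3 library of A549 stood apart. The SD of its deviations from its group mean over genes was 0.262 on the log2 scale against 0.095 to 0.195 in the other 17 libraries, so siRNA3 differences from control are also given without it. Keratins KRT8 and KRT18 were abundant in both lines. Of the 8 alveolar type 2 markers, SFTPA1 was at 0 in the A549 control and only ABCA3 exceeded 1 TPM, at 8.17. The list summed to 7.87 to 9.86 TPM there and to 23.2 to 24.6 in the MDA-MB-231 control, where NKX2-1 averaged 6.76 TPM against 0.00667 in A549, so these markers did not set the lung line apart. Of the luminal breast markers, the MDA-MB-231 control held ESR1 at 0.25 TPM, PGR at 0.1, GATA3 at 1.98 and FOXA1 at 2.87, beside KRT19 at 614.0. Leukocyte markers summed to at most 3.34 TPM in any library.

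The 8 genes differed widely in level. On the TPM scale, which is per transcript length, CYP24A1 led in the A549 control at 642.1 ± 33.4 (SD, n = 3) and ranked 210 among all genes. TIPARP followed at 23.9 ± 0.377 TPM, then CYP1B1 at 13.9 ± 1.1, AHR at 11.3 ± 0.990, CYP27B1 at 3.03 ± 0.115, VDR at 1.95 ± 0.343, AHRR at 1.31 ± 0.225 and CYP1A1 at 0.40 ± 0.0173. No pair of neighbours in that order overlapped between libraries.

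The order was different in MDA-MB-231. In its control CYP1B1 led at 159.7 ± 30.3 TPM, ahead of TIPARP at 92.0 ± 10.0, AHR at 56.6 ± 11.4, CYP1A1 at 23.1 ± 0.637, AHRR at 11.6 ± 0.608, CYP24A1 at 10.6 ± 0.836, VDR at 6.64 ± 0.195 and CYP27B1 at 1.26 ± 0.135. Only AHRR and CYP24A1 overlapped among neighbours there.

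The control groups of the lines were also tested against each other. The choice of genes did not use that contrast directly. The same control libraries, however, entered the siRNA-control differences that the choice did use. The tests below therefore describe the 2 lines and give no independent support. CYP24A1 was 72.5-fold higher in A549 (log2 difference 6.18 ± 0.08 SE, edgeR quasi-likelihood adjusted p = 3.21e-15) and CYP27B1 2.88-fold higher (1.53 ± 0.16, edgeR adjusted p = 8.72e-07). The other 6 genes were higher in MDA-MB-231. CYP1A1 showed the widest gap among them, at 47.8-fold (log2 difference of A549 against MDA-MB-231 −5.58 ± 0.12, edgeR adjusted p = 1.07e-13). CYP1B1 differed by −3.25 ± 0.11 on the log2 scale, AHRR by −2.89 ± 0.11, AHR by −2.06 ± 0.11, TIPARP by −1.69 ± 0.07 and VDR by −1.5 ± 0.12 (edgeR adjusted p of 6.45e-08 or less). All 8 passed the threshold of adjusted p under 0.05, where 82% of the 15816 genes tested did, so that count says little about these genes. Line and tissue of origin cannot be told apart, since each tissue has 1 line.

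In the siRNA comparisons, CYP24A1 was lower in MDA-MB-231 and close to the control in A549 siRNA1, while CYP1B1 and AHR were higher with siRNA1 in both lines and with siRNA2. VDR was lower with siRNA1 in both lines and higher with siRNA2 and siRNA3. AHRR was higher in all 4 comparisons. All 8 genes passed the filter on low counts in every fit. Of the 8, the number called in edgeR was 6 with A549 siRNA1 (background 71.7% of all genes tested), 7 with siRNA2 (60.9%), 4 with siRNA3 (61.3%) and 7 with MDA-MB-231 siRNA1 (55.3%), and nothing is read from these counts because the same contrasts chose the genes. The 3 A549 comparisons share their control libraries, so their values stand side by side only. In bulk RNA, fewer cells of a type and less RNA per cell cannot be told apart.

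**Figure D1:**
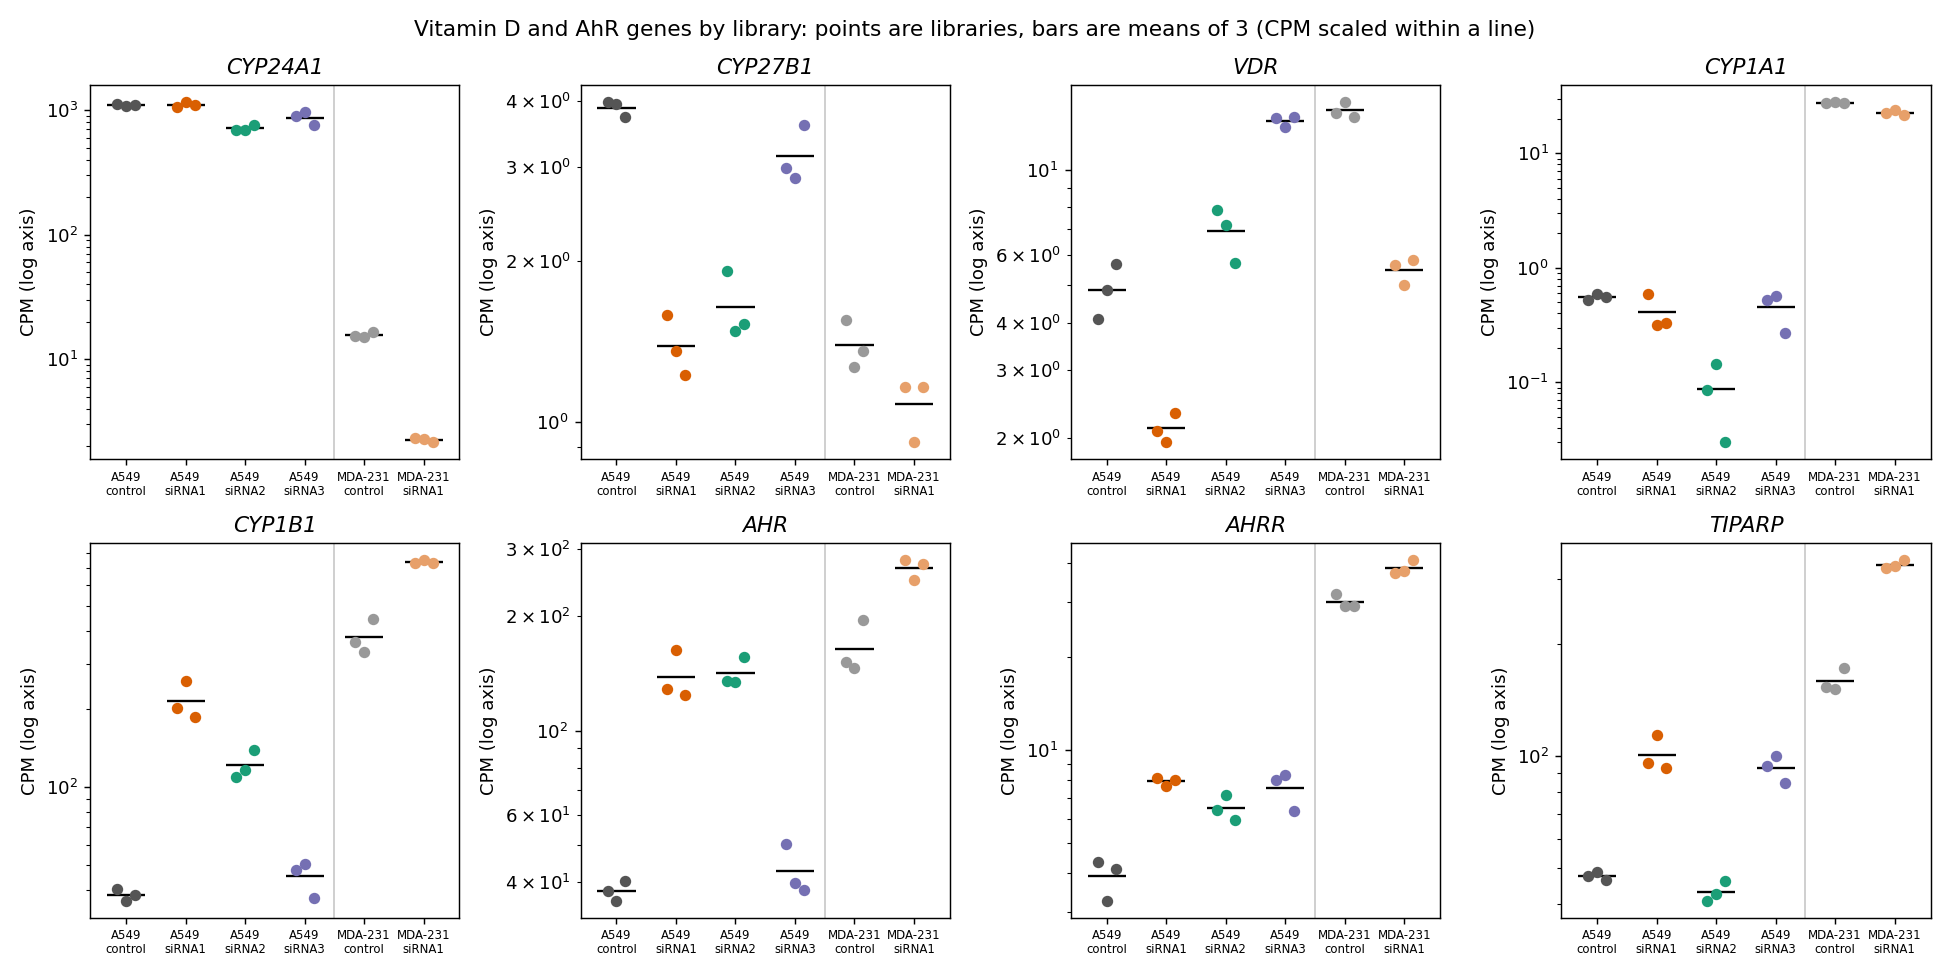
CPM of each gene (vertical, log axis, a separate scale per panel) in the 18 libraries by group (horizontal); points are libraries and bars are means of 3. CYP24A1 averages 15.7 CPM in the MDA-MB-231 control and 2.24 with siRNA1, against 1098 and 1108 CPM in A549, while CYP1B1 and AHR sit above control with siRNA1 in both lines.

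Beginning with the vitamin D enzymes, CYP24A1 read 15.4, 15.1 and 16.5 CPM in the MDA-MB-231 control libraries and 2.3, 2.26 and 2.14 CPM with siRNA1, from 83 to 89 expected counts per library. The siRNA1 libraries were all low and the groups did not overlap. The siRNA1 mean was 14.3% of the control mean, a log2 difference of −2.81 ± 0.10. In A549, at levels where each library held at least 22485 counts, the control libraries read 1125, 1076 and 1094 CPM and the siRNA1 libraries 1055, 1165 and 1105 CPM. Those groups overlapped, with a log2 difference of 0.01 ± 0.09. With siRNA2 the A549 libraries read 689.5, 691.3 and 763.0 CPM, all under the control (−0.62 ± 0.09). With siRNA3 they read 893.5, 960.0 and 765.0 CPM, also under it (−0.33 ± 0.09, and −0.25 without the third library). A549 thus kept CYP24A1 among its abundant transcripts in every group, ranked between 167 and 287 by mean TPM.

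CYP27B1, the calcitriol-making enzyme, was scarce in both lines. The A549 control libraries read 3.98, 3.94 and 3.73 CPM, against 1.59, 1.36 and 1.23 with siRNA1, 1.92, 1.48 and 1.53 with siRNA2 and 2.99, 2.87 and 3.61 with siRNA3. Every siRNA library was under every control library. The log2 differences were −1.48 ± 0.15, −1.24 ± 0.15 and −0.30 ± 0.15, the last −0.40 without the third library. In MDA-MB-231 the gene went from 1.39 ± 0.146 CPM to 1.08 ± 0.143 CPM with siRNA1 (−0.36 ± 0.19), on 34 to 48 counts per library.

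The ratio of CYP24A1 to CYP27B1, breakdown over synthesis in TPM, joined these values. It was 212, 204 and 220 in the A549 control libraries and 499, 642 and 677 with siRNA1, where CYP27B1 was lower. On this TPM scale CYP24A1 was also higher in every siRNA1 library (722.9, 841.7 and 758.1) than in any control library (669.7, 605.0 and 651.6), unlike its CPM. With siRNA2 the ratio was 269, 348 and 374, and with siRNA3 224, 250 and 159, a range that spans the control. In MDA-MB-231 it went the other way, from 7.42, 8.89 and 9.17 in the control to 1.48, 1.84 and 1.38 with siRNA1. These are RNA ratios and carry no measure of enzyme activity.

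The receptor VDR split the siRNAs. The A549 control libraries read 4.08, 4.85 and 5.70 CPM. With siRNA1 they read 2.09, 1.95 and 2.32 CPM, all low (−1.20 ± 0.15), and with siRNA3 13.7, 12.9 and 13.8 CPM, all high (1.46 ± 0.14, and 1.45 without the third library). siRNA2 lay between control and siRNA3, at 7.85, 7.19 and 5.71 CPM (0.50 ± 0.14), with its lowest library just over the highest control library. In MDA-MB-231 VDR was lower with siRNA1, from 14.1, 15.1 and 13.8 CPM to 5.64, 5.01 and 5.83 CPM (−1.38 ± 0.09). On log2 of TPM plus 1, which compresses differences of low genes, the siRNA1 difference of A549 was −0.56 for VDR and −0.81 for CYP27B1.

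Turning to AhR, the receptor gene AHR was high with siRNA1 and siRNA2. The A549 control libraries read 38.0, 35.8 and 40.3 CPM, the siRNA1 libraries 128, 163 and 124 CPM and the siRNA2 libraries 135, 135 and 156 CPM. Neither siRNA group overlapped the control, with log2 differences of 1.87 ± 0.13 and 1.90 ± 0.13. With siRNA3 the libraries read 50.4, 39.9 and 38.1 CPM and overlapped it (0.17 ± 0.13, and 0.25 without the third library). MDA-MB-231 began higher, at 151, 146 and 195 CPM, and reached 280.3, 248.7 and 274.0 CPM with siRNA1 (0.71 ± 0.10), again with no overlap.

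CYP1B1 was also high with siRNA1 and siRNA2. In the A549 control it read 40.4, 36.6 and 38.4 CPM, with siRNA1 201, 258 and 187 CPM and with siRNA2 109, 117 and 139 CPM. Both siRNA groups lay above the control (2.49 ± 0.14 and 1.66 ± 0.14). The siRNA3 libraries, at 48.0, 50.7 and 37.3 CPM, overlapped the control, with the third library lowest (0.24 ± 0.14, and 0.36 without it). In MDA-MB-231 CYP1B1 went from 362, 332 and 445 CPM to 734, 751 and 731 CPM (0.96 ± 0.09), where it ranked 448 of all genes by mean TPM. Its antisense neighbour CYP1B1-AS1 held at most 27 counts per library.

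CYP1A1, its close relative, did not follow it. In A549 it stood near the limit of detection, with 20, 22 and 22 counts in the control libraries, 24, 12 and 12 with siRNA1, 3, 5 and 1 with siRNA2 and 18, 17 and 8 with siRNA3. The siRNA2 libraries were all low (−2.62 ± 0.48), and the other siRNA groups overlapped the control (−0.41 ± 0.35 with siRNA1, −0.28 ± 0.35 with siRNA3, or −0.03 without the third siRNA3 library). Leaving out the first siRNA1 library moved its difference to −0.78. On log2 of TPM plus 1 the siRNA2 difference was −0.39. In MDA-MB-231 CYP1A1 was well counted, at 27.5, 28.1 and 27.7 CPM in the control and 22.6, 23.7 and 21.5 CPM with siRNA1, a small shift without overlap (−0.30 ± 0.06). The ratio of CYP1B1 to CYP1A1 in TPM was 31.1 to 39.2 in the A549 control and 171 to 399 with siRNA1. It was 405 to 2780 with siRNA2, on 3, 5 and 1 CYP1A1 counts, and 44.2 to 66.4 with siRNA3. In MDA-MB-231 it went from 5.94 to 8.13 up to 15.9 to 17.2.

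The feedback genes AHRR and TIPARP came next. AHRR, at 4.34, 3.27 and 4.14 CPM in the A549 control, read 8.12, 7.65 and 8.01 CPM with siRNA1, 6.39, 7.16 and 5.95 CPM with siRNA2 and 7.98, 8.31 and 6.36 CPM with siRNA3. All 9 siRNA libraries were above all control libraries (1.02 ± 0.13, 0.73 ± 0.13 and 0.95 ± 0.13, the last 1.05 without the third library). In MDA-MB-231 it went from 31.9, 29.2 and 29.1 CPM to 37.2, 37.7 and 40.9 CPM (0.36 ± 0.07), so AHRR was the member higher in every siRNA library of both lines.

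TIPARP was higher with siRNA1 and siRNA3 but not with siRNA2. Its A549 control libraries read 47.6, 48.7 and 46.5 CPM, siRNA1 96.1, 114 and 93.0 CPM (1.08 ± 0.09), siRNA3 93.9, 99.9 and 84.5 CPM (0.96 ± 0.09, and 1.02 without the third library) and siRNA2 40.9, 42.5 and 46.0 CPM (−0.14 ± 0.09). In MDA-MB-231 it went from 154, 152 and 173 CPM to 321.5, 326 and 337 CPM with siRNA1 (1.04 ± 0.06). TIPARP counts were not whole in 17 of 18 libraries, and its antisense partner TIPARP-AS1, with at most 17.5 counts per library, cannot be told apart from it on shared positions because the strand setting of the counting is not stated.

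**Figure D2:**
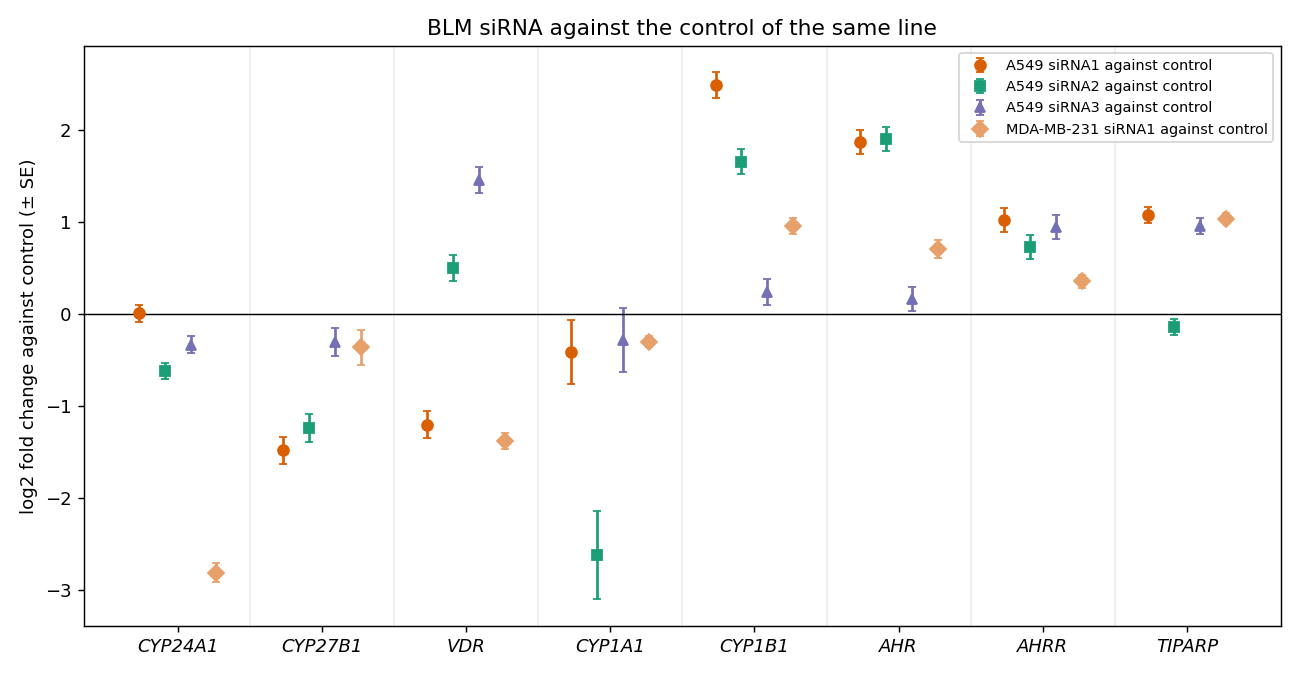
Log2 fold change against the control of the same line (vertical, ± SE) for the 8 genes (horizontal), 1 symbol per siRNA comparison. CYP24A1 sits at −2.81 in MDA-MB-231 and near 0 in A549 siRNA1, VDR lies on both sides of 0, and AHRR is above 0 in all 4 comparisons.

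Promoter windows were searched for known binding letters, apart from the expression values. The AhR and ARNT pair is known to bind the core letters GCGTG. RefSeq windows (GRCh38.p14) were found for 4 of the 8 genes, and the 250 bases before the start site were searched on both strands. CYP24A1, CYP27B1, VDR and CYP1B1 had no entry. The windows of CYP1A1 and of the first listed starts of AHRR and TIPARP are shown because these 3 targets differed in behaviour. Each is written 5′ to 3′ along the gene, with GCGTG, or CACGC where it lies on the opposite strand, in capitals.
CYP1A1, chr15:74725529-74725778, minus strand: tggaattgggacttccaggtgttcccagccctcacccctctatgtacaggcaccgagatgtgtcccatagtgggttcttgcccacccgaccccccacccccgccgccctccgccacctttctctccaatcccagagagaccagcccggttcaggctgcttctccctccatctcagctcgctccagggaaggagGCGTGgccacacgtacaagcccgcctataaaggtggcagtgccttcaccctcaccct
AHRR, chr5:321464-321713, plus strand: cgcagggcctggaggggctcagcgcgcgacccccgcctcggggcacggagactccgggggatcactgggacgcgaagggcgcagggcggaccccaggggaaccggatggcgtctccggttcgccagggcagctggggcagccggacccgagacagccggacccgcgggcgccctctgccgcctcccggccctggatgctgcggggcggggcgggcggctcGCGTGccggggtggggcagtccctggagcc
TIPARP, chr3:156674340-156674589, plus strand: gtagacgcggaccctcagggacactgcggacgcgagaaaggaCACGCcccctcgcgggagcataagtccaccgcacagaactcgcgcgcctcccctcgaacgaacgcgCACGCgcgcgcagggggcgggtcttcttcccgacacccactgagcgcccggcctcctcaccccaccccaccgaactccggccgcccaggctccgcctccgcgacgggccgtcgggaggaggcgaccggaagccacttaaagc

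The CYP1A1 window held 1 match, 57 to 53 bases before the start. The AHRR window held 1 at 30 to 26 bases, and the window of its second start held 2. The TIPARP window held 2, at 208 to 204 and 142 to 138 bases, and the windows of its other 2 starts held none. The AHR window held none. Over all 35116 windows of this length, 32.2% held at least 1 match and 10.2% at least 2, so a match is common. The vitamin D receptor hexamers (A or G, then G, then G or T, then T, then C or G, then A) were in 55.7% of windows, and pairs of them 3 bases apart in the same direction in 0.202%. The CYP1A1 window held 4 hexamers, the second AHRR window 2, and no window of these 4 genes held a pair. These matches are letters in a window, and no binding was measured.

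The siRNAs were then compared with each other in A549. The choice of genes did not use these contrasts directly. Each of them is, however, the gap between 2 siRNA-control differences that the choice did use, in the same libraries. Genes chosen for such differences may pass more readily, so the tests below describe the pairs and give no independent support. The 3 pairs gave 24 tests, of which 17 passed, with p-values adjusted over all 15898 genes. CYP24A1, VDR and CYP1B1 differed in all 3 pairs. Between siRNA1 and siRNA2, 5 of 8 genes differed (background 56% of all genes), between siRNA1 and siRNA3 5 (66.6%) and between siRNA2 and siRNA3 7 (59%), so the counts stand near the background in the first 2 pairs.

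VDR showed the largest difference of the 24, 6.36-fold lower with siRNA1 than with siRNA3 (log2 −2.67 ± 0.15, edgeR adjusted p = 3.58e-09). It was also 3.27-fold lower than with siRNA2 (−1.71 ± 0.15, edgeR adjusted p = 5.43e-07), and siRNA2 was lower than siRNA3 (−0.96 ± 0.13, edgeR adjusted p = 3.36e-05). CYP27B1 was lower with siRNA1 and with siRNA2 than with siRNA3 (−1.18 ± 0.16 and −0.94 ± 0.16, edgeR adjusted p = 1.93e-05 and 0.000172). Between siRNA1 and siRNA2 its difference was −0.24, with a 95% interval of −0.60 to 0.12 (edgeR adjusted p = 0.245).

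With siRNA1, CYP24A1 exceeded its siRNA2 level by 0.63 ± 0.09 on the log2 scale (edgeR adjusted p = 3.19e-05) and its siRNA3 level by 0.34 ± 0.09 (edgeR adjusted p = 0.00296). The step from siRNA2 to siRNA3 was smaller, −0.29 ± 0.09 (edgeR adjusted p = 0.0105), and varied with the setting. It was −0.38 with edgeR adjusted p = 0.000202 without the third siRNA3 library, −0.17 with adjusted p = 0.26 in limma on log2 of TPM plus 1 and −0.28 with adjusted p = 0.0521 in an edgeR fit of the 2 groups alone.

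For the AhR genes, CYP1B1 was 4.75-fold higher with siRNA1 than with siRNA3 (2.25 ± 0.14, edgeR adjusted p = 1.35e-08), and siRNA2 lay between (siRNA1 over siRNA2 0.82 ± 0.14, siRNA2 over siRNA3 1.43 ± 0.14, edgeR adjusted p = 0.000188 and 1.35e-06). AHR was higher with siRNA1 and siRNA2 than with siRNA3 (1.69 ± 0.13 and 1.73 ± 0.13, edgeR adjusted p = 6.76e-08 and 8.38e-08). Between siRNA1 and siRNA2 the AHR difference was −0.04, interval −0.30 to 0.23 (edgeR adjusted p = 0.828). TIPARP, the ADP-ribosyltransferase, was 2.34-fold higher with siRNA1 than with siRNA2 (1.23 ± 0.09, edgeR adjusted p = 1.3e-07) and lower with siRNA2 than with siRNA3 (−1.11 ± 0.09, edgeR adjusted p = 3.08e-07). Its difference between siRNA1 and siRNA3 was 0.12, interval −0.08 to 0.32 (edgeR adjusted p = 0.255), and reached 0.36 with adjusted p = 0.0248 in limma on log2 of TPM plus 1.

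CYP1A1 was lower with siRNA2 than with siRNA1 or siRNA3 (siRNA1 over siRNA2 2.21 ± 0.50, siRNA2 against siRNA3 −2.34 ± 0.50, edgeR adjusted p = 0.00165 and 0.00108), on the few counts given above. Between siRNA1 and siRNA3 it differed by −0.13, interval −0.92 to 0.66 (edgeR adjusted p = 0.768). AHRR passed in no pair, with differences of 0.29 (interval 0.01 to 0.56), 0.07 (−0.21 to 0.34) and −0.22 (−0.50 to 0.06) for siRNA1 against siRNA2, siRNA1 against siRNA3 and siRNA2 against siRNA3. The first passed in limma on log2 of TPM plus 1 (0.33, adjusted p = 0.0318) and in an edgeR fit of the 2 groups alone (0.30, adjusted p = 0.021). Without the third siRNA3 library the first and the last passed, at 0.29 and −0.33 (edgeR adjusted p = 0.0348 and 0.0328), and no other of the 24 calls changed.

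**Figure D3:**
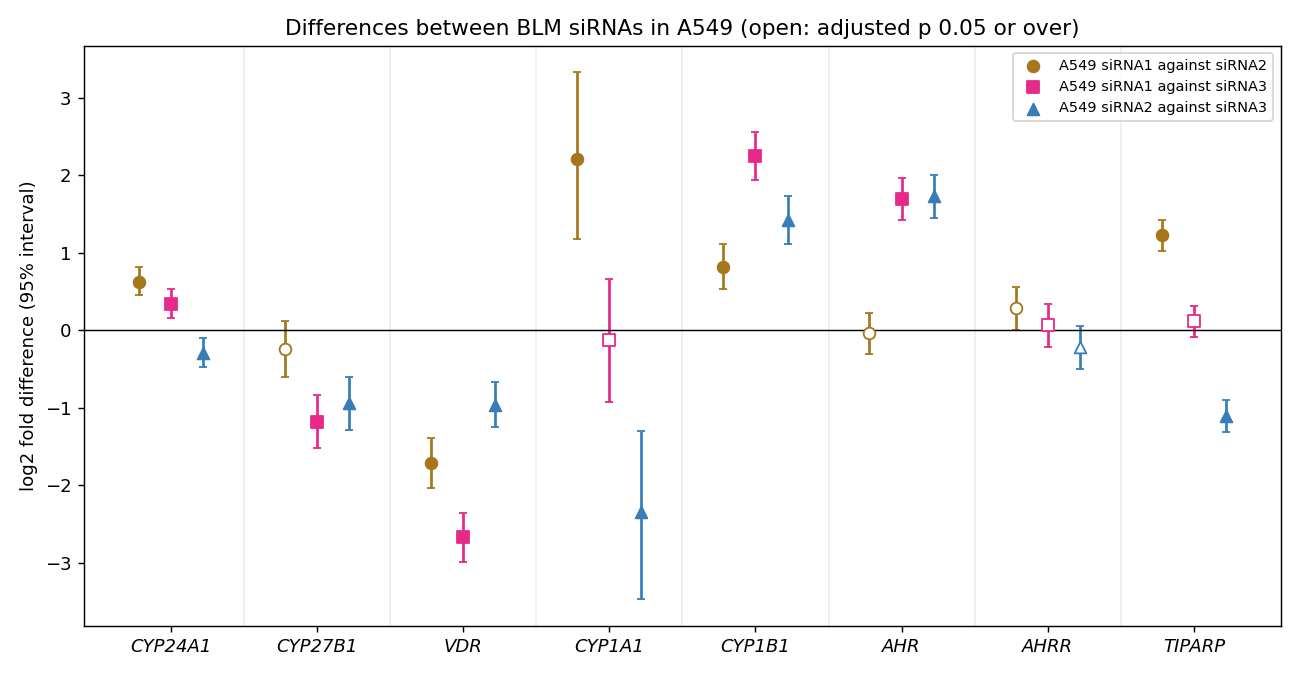
Log2 fold difference between BLM siRNAs in A549 (vertical, 95% interval) for the 8 genes (horizontal); filled symbols have edgeR adjusted p under 0.05 and open symbols do not. VDR reaches −2.67 and CYP1B1 2.25 for siRNA1 against siRNA3, and all 3 AHRR symbols are open.

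Markers of cell state moved across the same groups. The 5 epithelial markers summed to 5115 to 5362 TPM in the A549 control and to 13120 to 14950 with siRNA1, 6687 to 6943 with siRNA2 and 5138 to 5471 with siRNA3, led by KRT18. The 4 mesenchymal markers, led by VIM, summed to 929.8 to 1025 TPM in the A549 control and to 1807 to 1959 with the siRNAs, and in MDA-MB-231 went from 3064 to 3105 down to 2190 to 2259. VIM itself averaged 814.8 TPM in the A549 control, 940.0 with siRNA1, 1169 with siRNA2 and 1730 with siRNA3. With siRNA1 the sum was thus higher mostly through other markers of that list. The 6 fibroblast markers summed to 1.69 to 1.79 TPM in the A549 control, with DCN at 0, and to 5.42 to 16.0 with the siRNAs, led by COL1A1. Their part in the results above was not tested.

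Beyond the 8 genes, wider lists were chosen with earlier results of these data known. Their counts and medians, also where set beside all genes, are therefore descriptions and give no independent support. The vitamin D list had 35 genes, of which 23 passed the filter in A549 and 26 in MDA-MB-231. With siRNA1, 14 rose and 5 fell in A549, with siRNA2 14 rose and none fell, with siRNA3 10 rose and 7 fell, and in MDA-MB-231 11 rose and 8 fell (edgeR adjusted p under 0.05 over all genes). With siRNA2 no vitamin D list gene was lower at an unadjusted p under 0.05 either, and the count of falls was 3 in a fit of the 2 groups alone, 1 in DESeq2 and 2 without the third siRNA3 library. Of the 17 target genes of VDR on the list, 9 were tested in A549 and 11 in MDA-MB-231. Of the 9 tested in A549, 7 rose and 1 fell with siRNA1, 9 rose with siRNA2, and 6 rose and 3 fell with siRNA3. Their median log2 fold changes were 2.2, 1.28 and 0.85, against 0.09, 0.04 and 0.0 over all genes. In MDA-MB-231, 6 of 11 rose and 4 fell, with a median of 0.37 against 0.01. Over all genes tested, 39% rose and 32.8% fell with A549 siRNA1, 32.5% and 28.4% with siRNA2, 30.9% and 30.4% with siRNA3, and 27.5% and 27.8% in MDA-MB-231.

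Among those targets, THBD, the anticoagulant receptor thrombomodulin, rose in all 4 comparisons. It went from 20.8 CPM in the A549 control to 173 with siRNA1 (3.06 ± 0.08), 87.5 with siRNA2 (2.07 ± 0.07) and 94.0 with siRNA3 (2.18 ± 0.07), and from 211 to 457 in MDA-MB-231 (1.11 ± 0.09). CDKN1A, the cell cycle inhibitor p21 and also a well-known p53 target, rose by 3.82 ± 0.10, 1.38 ± 0.09 and 1.27 ± 0.09 in A549, with 1.28 ± 0.08 for MDA-MB-231. Which other genes of this list are also p53 targets was not examined, and the regulator behind the rises of the list was not tested. DUSP10, a phosphatase of stress kinases, rose in all 4 as well, by 2.2 ± 0.11, 2.31 ± 0.11, 1.83 ± 0.12 and 0.96 ± 0.06.

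SEMA3B, a secreted semaphorin, rose in A549 (3.04 ± 0.13, 2.06 ± 0.13 and 0.96 ± 0.13) and fell by 0.59 on the log2 scale in MDA-MB-231. IGFBP3, which binds insulin-like growth factors, rose in all 4 comparisons, by 2.35 ± 0.11, 1.28 ± 0.10, 0.67 ± 0.10 and 0.37 ± 0.09. ATP2B1, a calcium export pump, rose with siRNA1 (0.42 ± 0.10) and siRNA2 (1.04 ± 0.10) in A549 and in MDA-MB-231 (0.89 ± 0.05), and fell with siRNA3 by 0.59 on the log2 scale. The 1 target that fell with siRNA1 in A549 was G0S2, an inhibitor of fat breakdown named after its values were seen, at 0.218 CPM against 1.56 (−2.82 ± 0.35). G0S2 was higher with siRNA2 and siRNA3 (0.70 ± 0.25 and 0.85 ± 0.25) and lower in MDA-MB-231 (−0.18 ± 0.06), with calls that rested on single libraries. The siRNA2 call was lost without the second or the third siRNA2 library or the first or the third control library (edgeR adjusted p = 0.0542 to 0.104) and the siRNA3 call without the third siRNA3 library (0.54, edgeR adjusted p = 0.0505). The MDA-MB-231 call was lost on TPM and without the first or the third siRNA1 library or the second control library (edgeR adjusted p = 0.0809 to 0.142). CYP24A1, itself such a target, was below or near the control in these same groups.

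VDR's partners were mixed. RXRA, which pairs with VDR on DNA, rose with siRNA1 in A549 (1.04 ± 0.10, edgeR adjusted p = 6.46e-07) and with siRNA3 (0.37 ± 0.10, edgeR adjusted p = 0.00566), and was at −0.05 ± 0.10 with siRNA2 and 0.02 ± 0.08 in MDA-MB-231. Of the 10 receptor partners and coregulators tested, 5 rose and 3 fell with siRNA1, 4 rose with siRNA2, 3 rose and 3 fell with siRNA3, and 4 rose and 2 fell in MDA-MB-231. Of the genes for synthesis and uptake of vitamin D, 4 were tested in A549, where with siRNA1 2 rose and 1 fell. Among the rises was LRP2, at 0.475 CPM with siRNA1 against 0.0693 in the control, 0.184 with siRNA2 and 0.0449 with siRNA3. It passed the filter mainly through the siRNA1 libraries, where it was high. Its rise, also counted in the vitamin D list above, is a description only.

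The AhR list had 24 genes, with 20 tested in A549 and 19 in MDA-MB-231. It split in both directions, with 9 rises and 8 falls for siRNA1, 9 and 8 for siRNA2, 5 and 10 for siRNA3 and 6 and 7 in MDA-MB-231. On TPM the falls with siRNA1 were 5. The 12 AhR targets had 9 tested in A549, of which 6 rose and 2 fell with siRNA1, 6 rose and 3 fell with siRNA2 and 2 rose and 5 fell with siRNA3. Their medians were 0.94, 0.30 and −0.29 (−0.33 without GSTA2, at 0 counts in both groups). In MDA-MB-231, 3 of 8 rose and 4 fell, with a median of −0.23. The shares of all genes that rose and fell, given with the vitamin D list, stand beside these counts too.

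**Figure D4:**
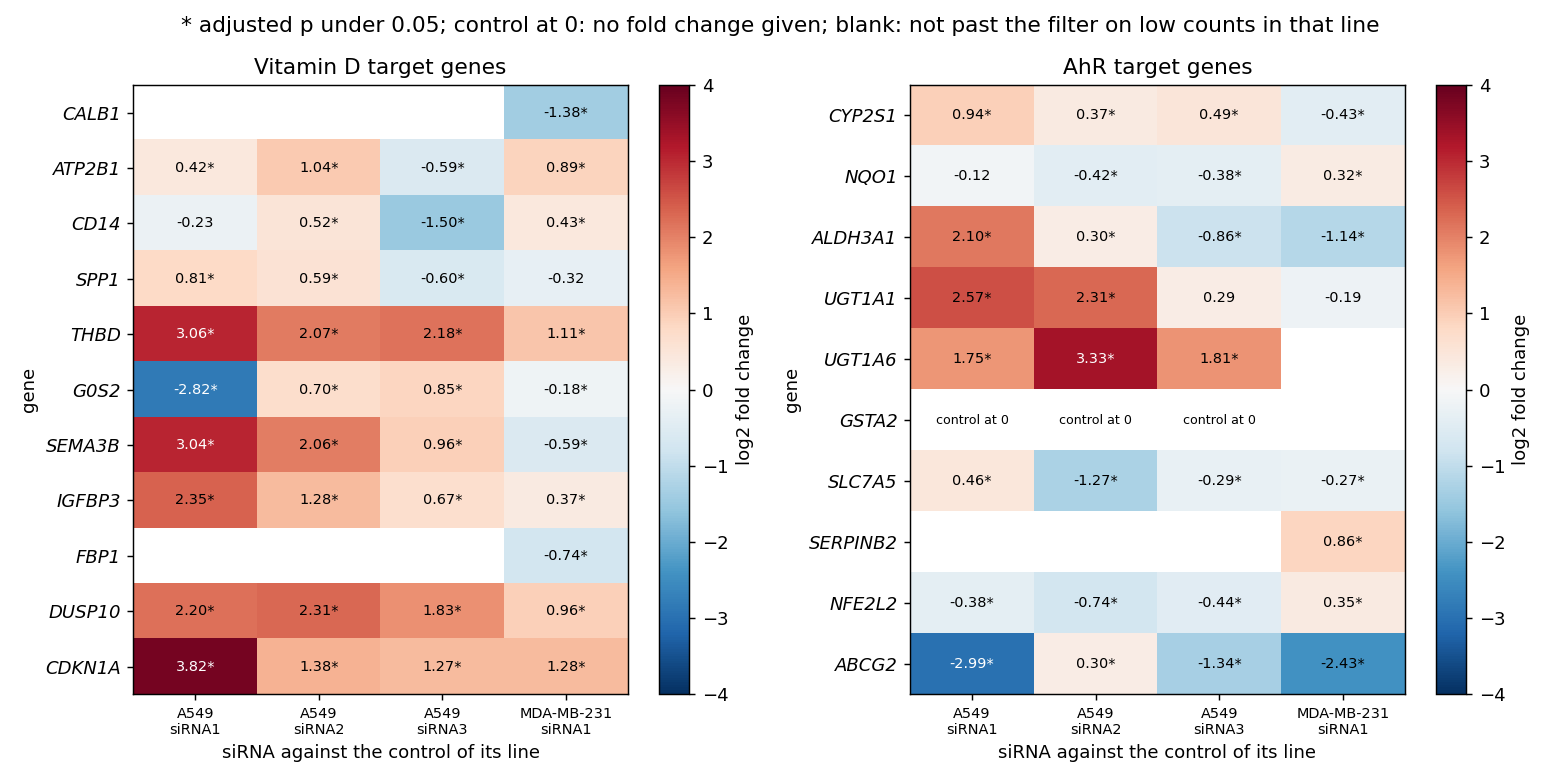
Log2 fold change (colour and printed value) of known VDR targets (left) and AhR targets (right), genes in rows and siRNA comparisons in columns; stars mark edgeR adjusted p under 0.05. THBD, DUSP10 and CDKN1A are above 0 in all 4 columns, while ABCG2 and ALDH3A1 change sign between columns.

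ABCG2, a drug and urate exporter, fell from 93.6 to 11.8 CPM with siRNA1 in A549 (−2.99 ± 0.07) and from 31.7 to 5.87 CPM in MDA-MB-231 (−2.43 ± 0.09), and with siRNA3 by 1.34 on the log2 scale. With siRNA2 it rose by 0.30 ± 0.07. ALDH3A1, an aldehyde dehydrogenase, rose from 572 to 2444 CPM with siRNA1 in A549 (2.1 ± 0.11) but fell by 0.86 on the log2 scale with siRNA3 and by 1.14 in MDA-MB-231. With siRNA2 it was at 0.30 ± 0.11, a call lost with DESeq2 size factors, with no filter and on leaving out any 1 of the siRNA2 libraries or the second control library (edgeR adjusted p = 0.0506 to 0.149). UGT1A6, a glucuronosyltransferase, rose with siRNA1, siRNA2 and siRNA3 (1.75 ± 0.36, 3.33 ± 0.34 and 1.81 ± 0.37), and it shares exons with the other UGT1A genes, so the split between them is uncertain. GSTA2, a glutathione transferase named after its values were seen, had 0 counts in the A549 control and 17, 21 and 17 with siRNA1, at least 20.3-fold higher against a floor of 3 counts over the control group. With siRNA3 it was also at 0, so it passed the filter only through siRNA1 and siRNA2 libraries, where it was high. Its rises with those siRNAs, counted among the AhR targets above, are descriptions only.

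SLC7A5, an amino acid transporter, rose with siRNA1 in A549 (0.46 ± 0.10) and fell with siRNA2 by 1.27 on the log2 scale. It was at −0.29 ± 0.10 with siRNA3, a call lost on TPM, in a fit of the 2 groups alone and without the third siRNA3 library (−0.21, edgeR adjusted p = 0.0685) or the third control library (−0.21, edgeR adjusted p = 0.124). In MDA-MB-231 it was at −0.27 ± 0.09, a call lost on TPM and without the first or the third siRNA1 library or the first or the second control library (edgeR adjusted p = 0.0792 to 0.125). NFE2L2, the transcription factor NRF2, fell with each A549 siRNA by 0.38 (−0.12 on TPM, adjusted p = 0.0946), 0.74 and 0.44 and rose in MDA-MB-231 (0.35 ± 0.05). In the receptor complex, HSP90AA1 and HSP90AB1, the chaperones that hold AHR in the cytoplasm, fell with siRNA1 in A549 by 0.78 and 1.18 on the log2 scale, with siRNA2 by 0.56 and 0.55 and in MDA-MB-231 by 0.66 and 0.31. With siRNA3 HSP90AA1 rose (0.41 ± 0.06) and HSP90AB1 was at 0.04 ± 0.07. ARNT, the DNA-binding partner, rose in all 4 comparisons (0.43 ± 0.10, 0.35 ± 0.10, 0.26 ± 0.10 and 0.48 ± 0.05). With siRNA3 that call was lost on TPM, in a fit of the 2 groups alone and in 4 of the fits with 1 library left out, among them the first and second siRNA3 libraries (edgeR adjusted p = 0.104 and 0.116) and the first and second control libraries (0.0564 and 0.133).

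Of the enzymes that make or consume tryptophan-derived AhR ligands, TDO2 opens the tryptophan ring. In A549 it rose with siRNA2 from 1.31 to 4.72 CPM (1.85 ± 0.17) and fell with siRNA3 to 0.499 CPM (−1.40 ± 0.22). With siRNA1 it was at 0.29 ± 0.18 there. In MDA-MB-231 TDO2 went from 0.126 to 0.456 CPM (1.82 ± 0.46). Its control mean in that line was near the limit of detection, and it passed the filter mainly through the siRNA1 libraries. That difference is therefore a description only. KYNU, which cleaves kynurenine, fell with siRNA3 from 299 to 134 CPM (−1.16 ± 0.09) and rose in MDA-MB-231 from 99.2 to 184 CPM (0.89 ± 0.05). With siRNA1 KYNU was at −0.30 ± 0.09 (−0.06 on TPM, adjusted p = 0.375). With siRNA2 it was at −0.24 ± 0.09, a call lost with the replicate block (edgeR adjusted p = 0.0628) and on leaving out any 1 of the siRNA2 libraries or the first or the second control library (edgeR adjusted p = 0.0702 to 0.102). AFMID, the formamidase of that pathway, fell with siRNA1, siRNA2 and siRNA3 by 1.05, 0.88 and 0.65 on the log2 scale and was at −0.11 ± 0.07 in MDA-MB-231.

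Likeness of pattern was measured as Pearson's r of log2 CPM over the 18 libraries, after subtracting the control mean of the line, among about 12089 genes. It is a description across libraries that share groups, and carries no p. Nearest to CYP24A1 was P3H2 (r = 0.964), then RNF157 and RAB11FIP1 (0.947 each). In MDA-MB-231 with siRNA1 their log2 fold changes were −0.83, −2.06 and −0.83, and in the A549 comparisons they lay between −0.27 and 0.16. These r values thus rest mainly on the MDA-MB-231 siRNA1 libraries, whose contrast was used to choose the genes. For CYP1B1 the nearest were TES (0.988), COL4A5 (0.987) and CLIP3 (0.974), and for CYP1A1 PHLPP2 (0.925), LETM1 (0.92) and PNMA2 (0.912). With A549 siRNA2 the log2 fold changes of PHLPP2, LETM1 and PNMA2 were −1.19, −1.33 and −1.66. In the other comparisons they lay between −0.48 and 0.12. The CYP1A1 values of r thus rest mainly on the A549 siRNA2 libraries, where CYP1A1 held 3, 5 and 1 counts. Contrasts behind the CYP1A1 and CYP1B1 values were also used to choose the genes.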

How the data were processed

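Total RNA from 18 cell line libraries was sequenced after ribosomal RNA removal with a stranded kit, per the labels' protocols. The expected counts deposited by the authors are RSEM estimates of reads per gene symbol, and the submitters' processing notes name RSEM and the hg19 genome. The TPM values deposited by the authors are scaled to transcript length and library total, per the file headers. Versions, aligner, annotation and strand setting were not given in the sources used here. Between 10.2% and 11.8% of expected counts per library were not whole.

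Expected counts were rounded and tested with edgeR 4.0.16 in R 4.3.3: TMM scaling, filterByExpr (minimum count 10, minimum total 15), the quasi-likelihood F test with group means only, and Benjamini-Hochberg adjustment over all genes, called under 0.05. Fits held the 12 A549 libraries (15898 genes), the 6 MDA-MB-231 libraries (15280) or the 6 control libraries (15816). Totals of 30143047 to 40328208 set the precision, so that genes under about 20 counts are imprecise. The tests were tried on simulated data. Replicates were compared for duplicates, and the least chi-square per degree of freedom was 2.79, so none was merged.

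The members and lists were chosen with earlier results of these data known. Genes were named as the 8 members, BLM, partners RXRA, ARNT, FDX1, FDXR and POR, up to 4 list genes per comparison (lowest adjusted p, mean log2 CPM 1 or more) and the 3 genes most like CYP24A1, CYP1A1 and CYP1B1. Alternatives were DESeq2 1.42.0 size factors and its Wald test, no filter on low counts, limma 3.58.1 on log2 of TPM plus 1 or 0.1, a replicate block, only the 2 groups compared, and leaving out each library. The fits of the other A549 comparisons without the third siRNA3 library were added after seeing the data. FPKM was not used. Promoter sequences came from RefSeq, GRCh38.p14.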

Additional observations from a re-analysis of the deposited data

How the results depend on the processing

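The 8 counts of genes called stayed within 1.5 times the main count in all 105 alternatives. Leaving out 1 library gave 10666 to 12194 genes for A549 siRNA1 against control, 8747 to 10742 for siRNA2, 8864 to 10307 for siRNA3 and 7194 to 9337 for MDA-MB-231. Between siRNAs it gave 7875 to 9979 (siRNA1 against siRNA2), 9823 to 10910 (siRNA1 against siRNA3) and 8487 to 9784 (siRNA2 against siRNA3), and between lines 12646 to 13278. Of 839 recomputed values of the 8 genes, 797 were counted as held. Differences between siRNA and control were judged by size alone, and 33 moved beyond the replicate spread. Differences between siRNAs and between lines were judged by the call alone, and 6 gained and 3 lost it. None of those called reversed. Calls gained or lost in the first set, and shifts of size in the second, were not counted. For example, CYP1A1 for siRNA1 against siRNA2 ran from 0.34 to 2.76. Most moves came with TPM, and the cause was not tested: CYP24A1 in MDA-MB-231 with siRNA1 was −2.16 on log2 of TPM plus 1. In A549 siRNA1, CYP24A1 ran from −0.06 (no filter) to 0.27 (TPM), on either side of 0. On log2 of TPM plus 1, against counts, the median log2 fold change of all genes was 0.23 against 0.09 for A549 siRNA1, 0.13 against 0.01 for siRNA1 against siRNA2, 0.21 against 0.02 for siRNA1 against siRNA3 and −0.2 against −0.01 between lines. The share of calls that were higher was there 68.4% against 54.3%, 65.5% against 51.1%, 69.4% against 51.6% and 38.6% against 49.6%, and in MDA-MB-231 siRNA1 60.0% against 49.8%.

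Replicate numbers did not pair the libraries: correlations of same-numbered deviations ran from −0.562 to 0.326, and no comparison had every pair over 0.1. With the replicate number as a block, 11063, 9293 and 9321 genes were called for the A549 siRNAs against control, 8375 in MDA-MB-231, 8467, 10246 and 8960 between siRNAs and 12636 between lines. In A549, fewer than 25 CYP1A1 counts per library limit what can be seen of that gene.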

Other observations

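Other P450 genes and their electron donors were also counted. Over all genes tested, 39% rose and 32.8% fell with A549 siRNA1 and 32.5% and 28.4% with siRNA2. The shares were 30.9% and 30.4% with siRNA3 and 27.5% and 27.8% in MDA-MB-231. The counts below stand beside those shares as descriptions only. FDXR, the reductase that feeds electrons to mitochondrial P450s such as CYP24A1 and CYP27B1, and also a known p53 target, rose from 33.4 to 246 CPM with siRNA1 in A549 (log2 2.88 ± 0.11, edgeR adjusted p = 4.54e-11) and to 57.7 CPM with siRNA2 (0.79 ± 0.10). It was at 0.05 ± 0.10 with siRNA3 and −0.23 ± 0.14 in MDA-MB-231, where leaving out the third control library gave −0.33 (edgeR adjusted p = 0.0371). FDX1, the ferredoxin between FDXR and these enzymes, fell with siRNA3 by 0.48 on the log2 scale and was at 0.29 ± 0.10 with siRNA1, a call lost in DESeq2, with no filter and without the first siRNA1 or the third control library (edgeR adjusted p = 0.0786 and 0.0877). POR, the donor of microsomal P450s such as CYP1A1 and CYP1B1, fell with siRNA3 by 0.54 on the log2 scale and rose in MDA-MB-231 by 0.52 ± 0.08. Of the 7 electron donor genes, 3 rose and 2 fell with siRNA1, 2 rose and 2 fell with siRNA2, 1 rose and 4 fell with siRNA3 and 1 rose and 3 fell in MDA-MB-231. The siRNA2 falls included POR, whose call was lost with the replicate block, on TPM, and without the second or the third siRNA2 library or the first or the third control library (edgeR adjusted p = 0.0651 to 0.146).

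The files held 52 other P450 genes, of which 19 passed the filter in A549 and 17 in MDA-MB-231. With siRNA1, 10 rose and 3 fell, with siRNA2 5 and 4, with siRNA3 5 and 6, and in MDA-MB-231 5 and 8. The A549 rises included CYP46A1, at 0.546 CPM with siRNA1 and 0.264 with siRNA2 against 0.0613 in the control. They also included CYP2J2, at 0.358 CPM with siRNA3 against 0.150. Both genes passed the filter mainly through libraries where they were high, so their rises are descriptions only. The MDA-MB-231 rises were 3 without the second or the third siRNA1 library, without the second control library, with no filter or in DESeq2, and the falls were 5 on TPM or without the second siRNA1 library. CYP3A5, a drug-metabolising enzyme, rose with each A549 siRNA, from 3.37 CPM to 17.9 (2.41 ± 0.13), 27.7 (3.03 ± 0.13) and 9.14 (1.44 ± 0.14). In MDA-MB-231 it was at −0.88 ± 0.29, a call lost without the first or the third siRNA1 library or the first control library (edgeR adjusted p = 0.086 to 0.0993). The fatty acid hydroxylases of the CYP4F cluster went different ways. CYP4F3 rose with siRNA1 (1.73 ± 0.12), was at −0.06 ± 0.13 with siRNA2 and fell with siRNA3 by 2.39 on the log2 scale, CYP4F12 was at 0.24 ± 0.12 with siRNA1, rose with siRNA2 (1.52 ± 0.12) and fell with siRNA3 by 2.64, and CYP4F11 fell with siRNA1, siRNA2 and siRNA3 by 0.37 (−0.11 on TPM, adjusted p = 0.318), 1.23 and 1.31. These genes are near-identical in parts, so the split of reads between them is uncertain. CYP2U1 fell in MDA-MB-231 from 21.1 to 7.83 CPM (−1.43 ± 0.09) and rose with each A549 siRNA (0.33 ± 0.10, 1.18 ± 0.10 and 0.68 ± 0.10).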
